A study of Mus musculus with 12 samples.

Results

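Excitation-contraction coupling and calcium handling genes were examined as a set of 40 named genes: voltage-gated calcium channels, ryanodine and inositol trisphosphate receptors, and genes of the triad, the sarcoplasmic reticulum and store-operated calcium entry. Members were found by their gene names in the 3 deposited gene tables. Of the 40 members, 31 were listed in at least 1 table, among 10289 genes listed in all, and 9 (Ryr2, Cacna1c, Cacna1h, Cacnb3, Atp2b1, Asph, Sln, Itpr1 and Itpr3) were listed in none and have no value here.

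C2C12, a mouse myoblast line that grows in serum-rich growth medium (GM) and fuses into myotubes after serum withdrawal, carried a lentiviral vector with a CMV promoter for GFP or for the mouse METTL3 or METTL14 cDNA, kept as stable lines under puromycin selection. RNA was sequenced from GFP-overexpressing cells in GM (day 0) and after 4 days in differentiation medium (D4), and in GM also from the METTL3 and the METTL14 lines, which makes 4 groups of 2 libraries. The METTL14 libraries are titled day 0, whereas their time point field says D4, and the title was followed here. The paper's figure legend for the METTL14 comparison also gives GM. No source used here says whether the 2 libraries of a group came from separate cultures. The D4 table sets GFP cells at D4 against GFP cells in GM, and the METTL3 and METTL14 tables set each overexpressing line in GM against those same GFP libraries in GM.

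In skeletal muscle the voltage sensor of the transverse tubule, a calcium channel complex, is mechanically coupled to the ryanodine receptor of the sarcoplasmic reticulum, and depolarization releases stored calcium onto the sarcomere. Calcium pumps return it to the reticulum, calsequestrin and related proteins hold it there, and junctophilins keep the membranes of the triad together. The genes for this machinery are a known part of the program that myoblasts switch on when they form myotubes.

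The values used are the authors' mean normalized counts, 1 per gene, taken over libraries. They carry no spread and no n, so no group could be compared with another and no test was run. Where tables shared a gene its means differed by at most 4.77e-10 of their value, and the headers do not name the libraries in the mean. Of the 8 RNA-seq libraries, 6 are titled day 0 and 2 day 4. How much of a gene's mean comes from GM and how much from D4 cannot be told from a pooled value and may differ between genes. A ratio of 2 genes' means is therefore a ratio of pooled values. Its size may hold in neither state, and its order need not hold in both. A table holds only genes that passed the authors' limit on the false discovery rate, and, since the authors' fold changes were not used, a listed gene is known only to have passed, not which way or how far it moved. The muscle markers Myod1, Myf5, Des, Myog, Myh3 and Acta1 were all listed, with mean normalized counts from 593 (Myf5) to 53546 (Acta1). Of 3 fibroblast markers, Col1a1 (34402) and Pdgfra (525) were listed and Thy1 was not. Of 4 smooth or cardiac muscle markers, Tnnt2 (7499), also expressed in developing skeletal muscle, and Myh6 (428) were listed, and Myh11 and Nppa were not. The targeted genes had means of 5827 (Mettl3) and 6250 (Mettl14), which cannot check the labels because they are pooled. By listing, Mettl3 was in the METTL3 table and in no other. Mettl14 was in the METTL14 and D4 tables and not in the METTL3 table. These listings match the labels but give no direction.

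The bases before the start of 4 members are shown, the voltage sensor pore and the release channel it is coupled to, and both calsequestrins, so that the members' identity and genomic place can be seen beside their levels. These 4 genes and the 4 motifs below were chosen after the levels had been seen. They are RefSeq sequences of GRCm38.p6, written 5′ to 3′ on the strand of the gene, from 250 bases before the RefSeq start and stopped at the first annotated exon. Capitals mark CANNTG, the E-box that myogenic basic helix-loop-helix factors such as MyoD and myogenin are known to bind. The Cacna1s window is chr1:136052561-136052749 on the plus strand, that of Ryr1 chr7:29125180-29125401 on the minus strand, that of Casq1 chr1:172219896-172220145 on the minus strand, and that of Casq2 chr3:102086165-102086414 on the plus strand.
Cacna1s: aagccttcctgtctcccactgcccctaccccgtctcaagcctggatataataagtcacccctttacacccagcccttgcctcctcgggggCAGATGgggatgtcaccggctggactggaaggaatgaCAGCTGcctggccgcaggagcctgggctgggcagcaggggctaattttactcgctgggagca
Ryr1: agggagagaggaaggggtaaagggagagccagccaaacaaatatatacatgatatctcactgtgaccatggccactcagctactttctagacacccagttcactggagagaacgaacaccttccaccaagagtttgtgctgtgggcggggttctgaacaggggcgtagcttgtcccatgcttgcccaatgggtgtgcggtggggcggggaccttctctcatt
Casq1: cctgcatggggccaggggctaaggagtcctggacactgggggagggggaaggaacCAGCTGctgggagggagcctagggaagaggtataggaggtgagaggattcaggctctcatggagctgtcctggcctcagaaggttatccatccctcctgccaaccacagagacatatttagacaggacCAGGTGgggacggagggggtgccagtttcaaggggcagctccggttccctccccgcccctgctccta
Casq2: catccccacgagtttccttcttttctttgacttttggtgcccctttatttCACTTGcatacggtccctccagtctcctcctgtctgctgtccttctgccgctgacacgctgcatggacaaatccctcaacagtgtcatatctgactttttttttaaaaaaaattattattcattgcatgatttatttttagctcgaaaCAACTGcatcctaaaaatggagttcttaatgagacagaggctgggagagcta

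The Cacna1s, Casq1 and Casq2 windows hold 2 CANNTG matches each and the Ryr1 window holds none. A promoter sequence was found for 21 of the 31 listed members. In the 250 bases before a start, 16 of these 21 (76.2%) held CANNTG, against 69.3% of the 27025 genes with a promoter sequence and 61.9% of the 7601 of them listed in a table. The narrower CAGCTG, which is contained in CANNTG, was found in 10 of 21 (47.6%), against 14.7% of all genes and 15.1% of listed genes. CTA and TAG with any 4 bases between them, a pattern that covers only some forms of the MEF2 site, were found in 0 of 21. The shares were 3.70% of all and 3.57% of listed genes, so low that 0 of 21 does not set the members apart. Forms that begin with TTA or end in TAA were not searched. The Casq2 window shown above holds such a form, TTATTTTTAG, so the search cannot tell whether MEF2 sites are absent. TATAAA was also found in 0 of 21, against 14.3% of all and 8.83% of listed genes. Both strands were searched, and any of a gene's starts counted. Unlike the windows shown, the counts used the full 250 bases, also past the point where an annotated exon is met. Every match of Cacng6 and the only match of Fkbp1a lay past that point. These matches describe letters in a fixed window for motifs picked afterwards, no test was run on them, and binding was not measured.

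The listed members were abundant for these tables. Their median mean normalized count was 1418, against 458 over all 10289 listed genes, and 24 of the 31 lay above that overall median. Per kilobase (kb) of exons, the scale on which levels of different genes can be set side by side, the median was 239 for the members and 99.5 for all listed genes, and 21 members lay above it. The median member stood at percentile 80.1 of all listed genes by mean normalized count and at percentile 73.6 per kb. Levels spread widely within the set: 18 members reached 1000 mean normalized counts, and 3 were under 100 (Cacna1b, Camk2b and Cacng6). The members together made up 0.895% of the summed mean normalized counts of all listed genes, being 0.301% of those genes, and the 3 highest of them held 51.2% of the members' sum.

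**Figure D1:**
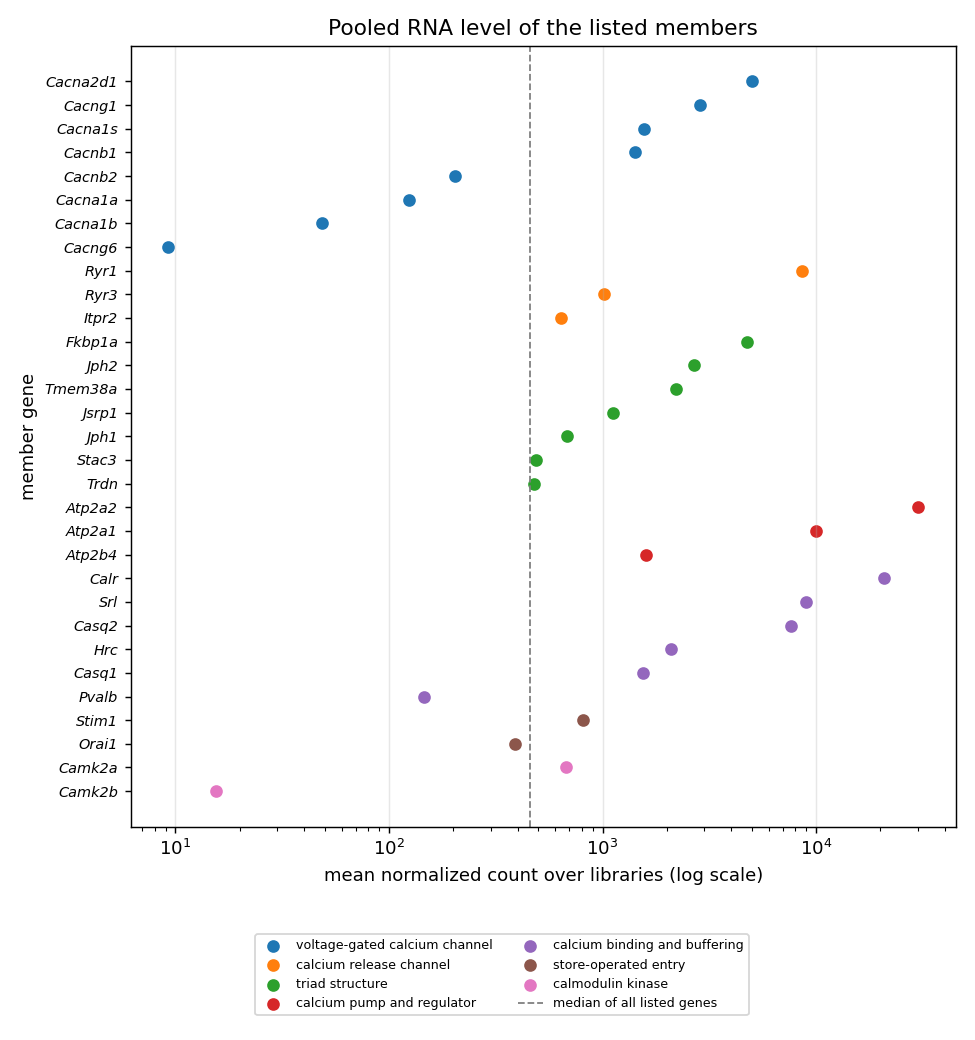
Mean normalized count over libraries (log axis) of the 31 listed members, 1 point per gene, coloured and grouped by role, with the median of all listed genes (458) as a dashed line. Points run from 9.26 for Cacng6 to 30026 for Atp2a2, and 24 of them lie to the right of the line; the values are pooled means and have no error bars.

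The voltage-gated calcium channel genes were 8 of 11 listed, with mean normalized counts between 9.26 and 5030. Cacna1s (ENSMUSG00000026407, GRCm38 chr1:136052750-136119822), the pore and voltage sensor of the skeletal muscle channel, had a mean normalized count of 1563, or 239 per kb. Of its exon bases 19.99% are shared with the annotated gene Gm37759. Its partners in the skeletal muscle complex were also listed: the alpha2-delta gene Cacna2d1 at 405 per kb, the beta subunit gene Cacnb1 at 313 per kb and the gamma subunit gene Cacng1 (GRCm38 chr11:107703218-107716522) at 2280 per kb. Cacng1 was therefore the highest channel gene per length, although Cacna2d1 had the larger mean normalized count (5030 against 2848).

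The neuronal pore genes were far lower. Cacna1a, the P/Q-type pore, stood at 10.8 per kb and Cacna1b, the N-type pore, at 4.88 per kb, so that the Cacna1s level per kb was 22.1 and 48.9 times theirs. Without division by length these ratios were 12.7 and 32.2. Cacnb2, the beta subunit best known from the heart, stood at 15.5 per kb, and the Cacnb1 level was 20.2 times higher per kb. The Cacnb1 to Cacnb2 ratio was 10.3 when the longest transcript gave the length and 6.92 without division by length. The lowest channel gene was Cacng6, at 4.68 per kb against 2280 for Cacng1, a ratio of 487, or 308 without division by length. With a mean normalized count of 9.26 over libraries, Cacng6 was close to the lowest values in the tables, and the error of the ratio is unknown.

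Among the calcium release channels 3 of 6 were listed. Ryr1 (ENSMUSG00000030592, GRCm38 chr7:29003344-29125179), the release channel of the skeletal muscle triad, had a mean normalized count of 8634, at percentile 98.4 of all listed genes. Its exons span 21838 bases, and per kb it stood at 395, number 14 among the 31 listed members. Ryr3, an isoform known from developing muscle, was at 53.6 per kb, so that Ryr1 was 7.38 times higher per kb. The inositol trisphosphate receptor gene Itpr2 was at 43.0 per kb, near Ryr3, and without a spread the order of these last genes cannot be judged. Ryr2, the cardiac isoform, and Itpr1 and Itpr3 were not listed, which says nothing about their level.

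Of the 8 genes for the structure of the triad, 7 were listed, and their levels covered the range from 51.2 to 1231 per kb. Fkbp1a, the immunophilin that binds the ryanodine receptor and also has roles outside muscle, was the highest with 1231 per kb. Tmem38a, a monovalent cation channel of the reticulum, followed at 1036 per kb, and Jsrp1, a junctional protein of the reticulum, at 844 per kb. Jph2 (GRCm38 chr2:163336242-163397993) was at 632 per kb and Jph1 at 136 per kb, a ratio of 4.65 between these junctophilins. Stac3, the adaptor needed for the voltage sensor to work, had 192 per kb. Trdn, which anchors calsequestrin to the ryanodine receptor, had the lowest level of the group with 51.2 per kb, over 9352 bases of annotated exons, and 106 per kb of its longest transcript.

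Both listed pumps of the sarcoplasmic reticulum were among the highest members, whereas the listed pump of the plasma membrane lay below the members' median per kb. Atp2a2 (ENSMUSG00000029467, GRCm38 chr5:122453513-122502225), the pump of slow muscle, heart and most other cells, had a mean normalized count of 30026, the highest of the set, and 4938 per kb. Atp2a1 (GRCm38 chr7:126445858-126463108), the pump of fast muscle fibers, had 9992 and 2874 per kb. The pooled Atp2a2 value was 1.72 times that of Atp2a1 per kb and 3.00 times without division by length. Both means are pooled over libraries, so the ratio in GM or at D4 alone is unknown. Both genes were in the D4 table, and the ratio may differ between these states. Of the Atp2a1 exon bases 21.9% are shared with exons of Rabep2, a neighbouring gene, and the sources used here do not say whether reads were counted by strand. Atp2b4, a pump of the plasma membrane, was at 131 per kb, and Atp2b1 and the pump inhibitor Sln were not listed.

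All 6 calcium binding and buffering genes were listed. Calr, the calcium-binding chaperone of the endoplasmic reticulum in all cells, had 20800 mean normalized counts and the highest level per kb of the set, 7222. Casq2 (GRCm38 chr3:102086415-102146514), the calsequestrin of heart and slow muscle, had 2801 per kb, and Casq1 (GRCm38 chr1:172209894-172219868), that of fast fibers, 797 per kb, a ratio of pooled values of 3.51. Because the means are pooled, the ratio in GM or at D4 alone is unknown, and both genes were in the D4 table. Srl, the sarcalumenin gene, was at 1693 per kb and Hrc, a histidine-rich calcium-binding protein of the reticulum, at 817 per kb. Pvalb, the cytosolic calcium buffer of adult fast fibers, was the lowest of the group with a mean normalized count of 147 and 141 per kb.

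The store-operated entry genes lay between percentiles 43.9 and 66.0 of all listed genes, by mean normalized count or per kb. Both were below the members' medians on either scale. Stim1, the calcium sensor of the reticulum, had a mean normalized count of 811 and 78.2 per kb, and Orai1, the pore it opens, 390 and 170 per kb. Their order thus depends on the division by length. For the calmodulin kinases, Camk2a stood at 90.6 per kb and Camk2b at 1.69 per kb, the lowest level of the set, with a mean normalized count of 15.4.

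**Figure D2:**
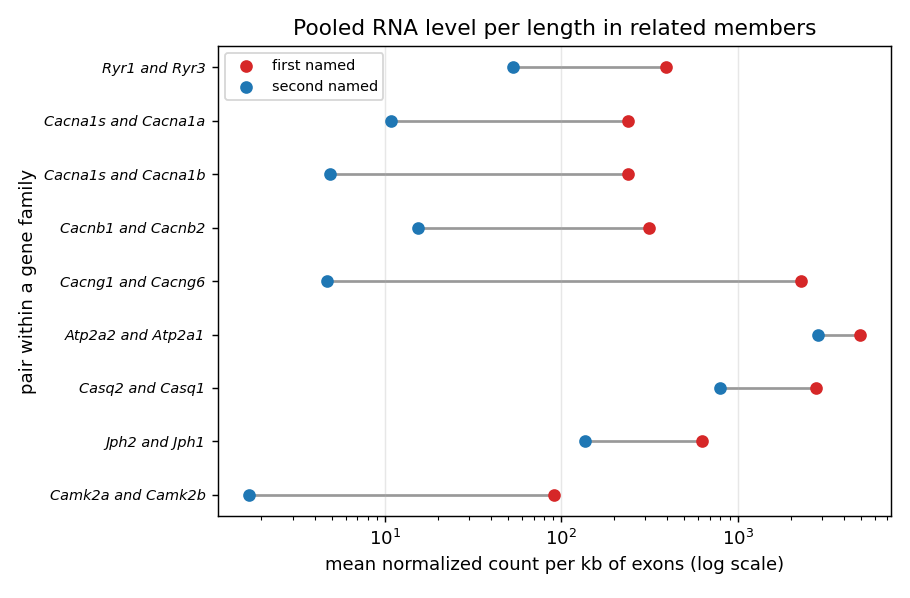
Mean normalized count per kb of exons (log axis) for 9 pairs of related members, the first named gene in red and the second in blue. The gap is narrowest for Atp2a2 and Atp2a1 (1.72-fold) and widest for Cacng1 and Cacng6 (487-fold); the values are pooled means with no error bars.

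The tables differed in how many members they listed. The D4 table listed 29 of the 31 members (93.5%), beside 95.5% of all 10289 genes found in any table. It supplied 9823 of those genes itself, so the share is high for almost any set. The comparison therefore cannot tell whether the members stood out in it. Cacna1a and Cacnb2 were the members the D4 table left out. The METTL3 table listed 12 of 31 (38.7%), against 17.0% of all listed genes: Ryr1, Itpr2, Cacna1a, Cacnb1, Cacnb2, Cacng1, Atp2b4, Jph2, Stac3, Jsrp1, Calr and Fkbp1a. The METTL14 table listed 8 of 31 (25.8%), against 10.7%: Ryr1, Ryr3, Cacna1a, Cacna1b, Cacnb1, Cacnb2, Jsrp1 and Calr. All 3 tables rest on the same GFP libraries in GM. These shares were read as descriptions, since the members were chosen with earlier results of these data known.

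By role, of the 8 listed voltage-gated channel genes 4 were in the METTL3 table and 4 in the METTL14 table. For the 7 listed triad genes the counts were 4 and 1, and for the 3 listed release channels 2 and 2. For the 6 buffering genes they were 1 and 1, and for the 3 listed pumps 1 and 0. No store-operated entry gene or calmodulin kinase was in either of these tables. All these counts stand beside the 17.0% and 10.7% of all listed genes. With so few genes in a role these counts are given as descriptions. With a minimum of 100 mean normalized counts, the METTL3 table held 12 of 28 members (42.9%) and 19.4% of all genes, and the METTL14 table held 7 of 28 members and 12.0% of all genes. With a minimum of 1000, chosen after seeing the data, the shares were 8 of 18 members (44.4%) and 21.3% of all genes for METTL3, and 5 of 18 members (27.8%) and 12.6% of all genes for METTL14. For the D4 table they were 26 of 28 members (92.9%) and 95.9% of all genes at 100, and 18 of 18 members and 96.5% of all genes at 1000.

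**Figure D3:**
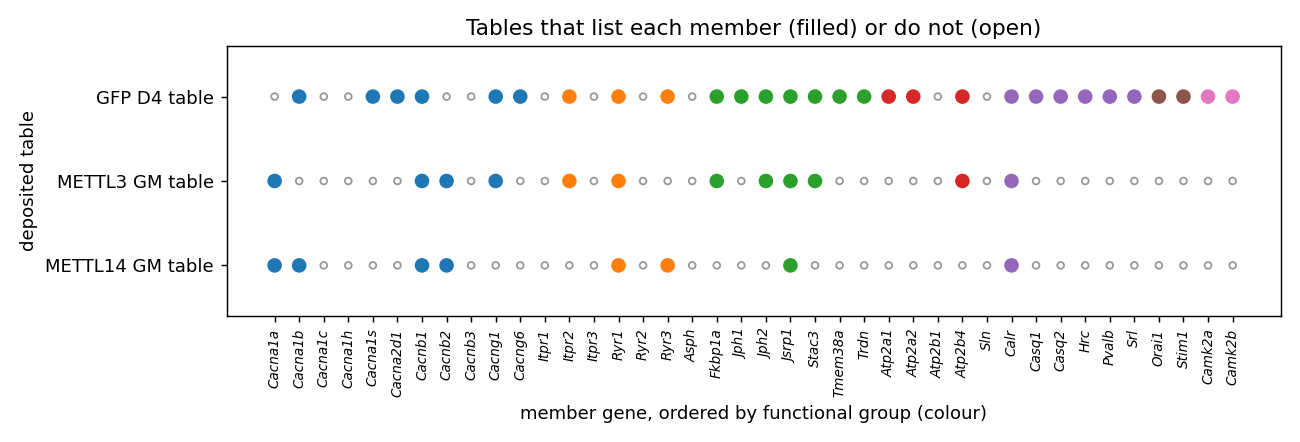
Deposited tables (rows) that list each of the 40 members (columns, ordered and coloured by role); filled points mark a listed gene and open points a gene not listed. The D4 row has 29 filled points, the METTL3 row 12 and the METTL14 row 8; a point gives no direction or size of change.

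Of a further 56 genes chosen for their roles in calcium handling, 29 were listed. All 29 were in the D4 table, which held 95.5% of all listed genes. The METTL3 table held 5 of the 29 (17.2%), near its 17.0% of all listed genes, and the METTL14 table held 4 (13.8%), beside 10.7%. Their median level was 178 per kb, against 239 for the members. Among those with the highest mean normalized counts were the membrane-bending gene Bin1 (6595), the reticulocalbin gene Rcn1 (3792) and the calmodulin genes Calm3 (3573) and Calm2 (3390). Among relatives of the members, Stac2 had 584 per kb, above the 192 of Stac3, and Camk2g had 381 per kb, above the 90.6 of Camk2a. Stim2 had 290 per kb against 78.2 for Stim1, or 1488 against 811 in mean normalized counts. Tmem38b had 178 per kb against 1036 for Tmem38a, and Fkbp1b 35.5 against 1231 for Fkbp1a. No other gene length was tried for the further genes, so the size of these gaps may depend on it. Cacna1g (1.65 per kb), Cacna2d2 (0.409), Cacng7 (7.31) and the plasma membrane pump gene Atp2b3 (1.29) were listed at under 10 per kb.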

How the data were processed

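RNA-seq of C2C12 cells was used through 3 gene tables; the 4 MeRIP-seq libraries were not analysed here. Per the paper's methods, the authors used hisat2 for alignment to GRCm38, featureCounts with Ensembl annotation 102 for gene counts and DESeq2 for the comparisons, and kept genes at a false discovery rate of at most 0.05. Program versions are not given in the sources used here. The deposited mean normalized count is a signal, the mean over libraries of counts divided by the authors' size factors. The tables also hold the authors' log2 fold changes, standard errors, statistics and p-values; these are their own comparisons and were not used. Without values for single libraries no test, spread or confidence interval could be computed, and the precision of each mean is unknown; read totals given by the study were not used.

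Members were matched by gene name. Levels per kb used the union of exons in GENCODE M21 (GRCm38, the same build but another annotation release), which held 10282 of the 10289 genes. Family pairs were set by gene family, with the gene of higher level, once seen, named first. Every listed member was named; of further genes, the 5 highest and relatives of members, of which 1 is counted but not reported here. The members and lists were chosen with earlier results of these data known. Alternatives were another gene length, no division by length, minimums of 10 and 100 on the mean normalized count, protein-coding genes and the D4 table alone. A minimum of 1000 and a background of listed genes for the motifs were added after seeing the data. With no spread or depth, a value was called moved when it changed by more than 1.5 times. The counting, ranking and exon-merging steps were tested on made-up data. The motif search, the trimming of windows, the exon overlaps and the ratios were not. Python 3.11.15, pandas 2.3.3 and matplotlib 3.10.9 were used.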

Additional observations from a re-analysis of the deposited data

How the results depend on the processing

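The order of the genes in the 9 family pairs was the same under both other length settings tried. Without division by length, the ratio of levels moved by over 1.5 times for Cacna1s to Cacna1a (12.7), Cacna1s to Cacna1b (32.2), Cacnb1 to Cacnb2 (6.92), Cacng1 to Cacng6 (308) and Atp2a2 to Atp2a1 (3.00). With the longest transcript as the length, it did so for Cacnb1 to Cacnb2 (10.3). Under a minimum of 1000 mean normalized counts, chosen after seeing the data, the members listed fell by construction to 18 in the D4 table and 5 in the METTL14 table, among 18 members left. The counts of members listed and the medians over the members stayed within 1.5 times under the minimums of 10 and 100, with protein-coding genes, with the D4 table alone, with the longest transcript and with the level per kb, each for the results it was run on. Exons of Cacna1s (19.99%) and Atp2a1 (21.9%) overlap those of other genes by more than 10%. No paired analysis was possible because the values come from no test and carry no replicate number. For the same reason no library could be left out. The deposited tables hold no depth per library and the study's read totals were not used here, so no limit from depth is given for the lowest genes, such as Cacng6 and Camk2b.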
